A study of Mus musculus with 6 samples.

Results

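The 9 genes described here encode subunits of the transcription factor AP-1 and other immediate early factors, and were chosen by name: Fos, Fosb, Fosl1, Fosl2, Jun, Junb, Jund, Atf3 and Egr1. The choice was made with earlier results of these data known. Of these 9, 8 had a row in the authors' table of 11417 genes, and Fosb was not listed. The table gives poly(A) RNA levels in BC44, HC11 and C57MG, with 2 libraries per line and 6 in all. These are established mouse mammary lines labelled epithelial, a label that the markers given below did not bear out for C57MG. All cells were untreated and grown on plastic, and were harvested 2 days after plating. BC44 was kept in RPMI medium with 10% serum and 5 µg/ml insulin, HC11 in the same with 10 ng/ml epidermal growth factor (EGF) added, and C57MG in DMEM, also with 10% serum, and 10 µg/ml insulin. A difference between lines and a difference between their media therefore cannot be told apart, and each line stands only for itself. Nothing in the labels says that replicate libraries came from separate cultures, so p-values measure the spread between these libraries, which may be technical.

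AP-1 is a dimer of leucine-zipper proteins. Jun proteins pair with one another or with Fos proteins, and Fos proteins need a Jun partner to bind DNA. Fos, Fosb, Egr1, Atf3 and Jun are classical immediate early genes, transcribed within minutes of growth factor, serum or stress signals from factors already present in the cell, while Fosl1 (FRA-1) and Fosl2 (FRA-2) are slower and last longer under sustained MAP kinase signalling. In mammary cells FRA-1 is known for its association with motile, mesenchymal states, and Jund is often an abundant Jun gene of resting cells.

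Several of these genes are known to be controlled through AP-1-like or EGR-type elements in their own promoters, so the upstream sequence is shown for the 3 members of the table whose 250 bases before the RefSeq start held one of the motifs searched. RefSeq promoter entries (build GRCm38.p6) were matched for 7 of the 9 genes, all but Fosl1 and Egr1. The motifs were TGANTCA, TGACGTNA, TGACATCA, TTACCTCA, GCGNGGGCG and the CArG box bound by serum response factor, on both strands, and matches are in capitals. Positions count back from the base before the start, which is -1.
Jun, chr4:95052253-95052402, minus strand, -180 to -31: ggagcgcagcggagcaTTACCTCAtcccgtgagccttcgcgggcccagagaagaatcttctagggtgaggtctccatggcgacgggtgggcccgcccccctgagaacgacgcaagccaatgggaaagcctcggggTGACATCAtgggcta
Atf3, chr1:191183334-191183453, minus strand, -120 to -1: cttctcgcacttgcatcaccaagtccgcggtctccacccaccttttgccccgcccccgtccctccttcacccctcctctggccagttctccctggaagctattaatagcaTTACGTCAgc
Fosl2, chr5:32136352-32136441, plus strand, -120 to -31: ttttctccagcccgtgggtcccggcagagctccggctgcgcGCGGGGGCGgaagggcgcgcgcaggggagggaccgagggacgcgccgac

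Jun held TTACCTCA at -164 and TGACATCA at -45, which are matched by 0.728% and 2.93% of the 32851 promoters of the same length. Atf3 held TTACGTCA at -10, which matches TGACGTNA on the other strand, and 2.52% of promoters match TGACGTNA. Fosl2 held the EGR-type GCGGGGGCG at -79, as did Fosb at -50, and 4.70% of promoters match GCGNGGGCG. Fos, Junb and Jund held no match in this window. Sequence further upstream and looser forms of the motifs were not searched, so this does not say that these genes lack such elements. A match is a description of letters, and the 3 genes shown did not share 1 pattern of expression across the lines: Jun was highest in C57MG, while Atf3 and Fosl2 were lowest there.

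The lines differed in which Fos-family gene they transcribed. BC44 carried almost only Fosl2, C57MG mostly Fosl1, and HC11 comparable amounts of both together with the only sizeable Fos level. HC11 also had the highest Egr1 and Junb. C57MG had the highest Jun, the lowest Junb, Jund and Fosl2, and next to no Atf3. Levels are given in RPKM (read counts corrected for gene length and for library size), and tests were run with limma on log2(RPKM + 1) over the 10759 genes that had at least 1 RPKM in at least 2 libraries. An adjusted p-value (Benjamini-Hochberg, over all tested genes) under 0.05 was called past the threshold.

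The depth was estimated from the steps of the low values at 14290000 to 18580000 reads per library. The label mammary epithelial was checked against markers. The 8 epithelial markers summed to 4987 and 4780 RPKM in BC44, 3095 and 2219 in HC11, against 136.5 and 65.5 in C57MG. The BC44 sum was mostly the basal keratins Krt5 (2012 and 1828 RPKM) and Krt14 (2716 and 2736). The luminal keratins Krt8 and Krt18 were at 0.064 RPKM or less in BC44 and at 0.503 or less in C57MG, and Cldn3 was listed at 0 in both libraries of both lines. HC11 had 144.4 and 148 RPKM of Krt8. Epcam and Cdh1 were at 92.1 RPKM or more in BC44 and HC11, and at 1.09 or less in C57MG, where both were listed at 0 in replicate 2. The 7 listed mesenchymal markers of 8 summed to 3648 and 3305 RPKM in C57MG and to 203.3 to 294.2 in the other 4 libraries. In those 4 libraries the sum was mostly Fn1, at 232.4 and 235.2 RPKM in BC44 and 179.6 and 260.6 in HC11. These markers thus did not bear out the label epithelial for C57MG. Of the epithelial markers only Krt14 was sizeable there in both libraries (118 and 64.8 RPKM), while Vim was at 2708 and 2282 RPKM. None of 6 immune markers was listed.

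**Figure D1:**
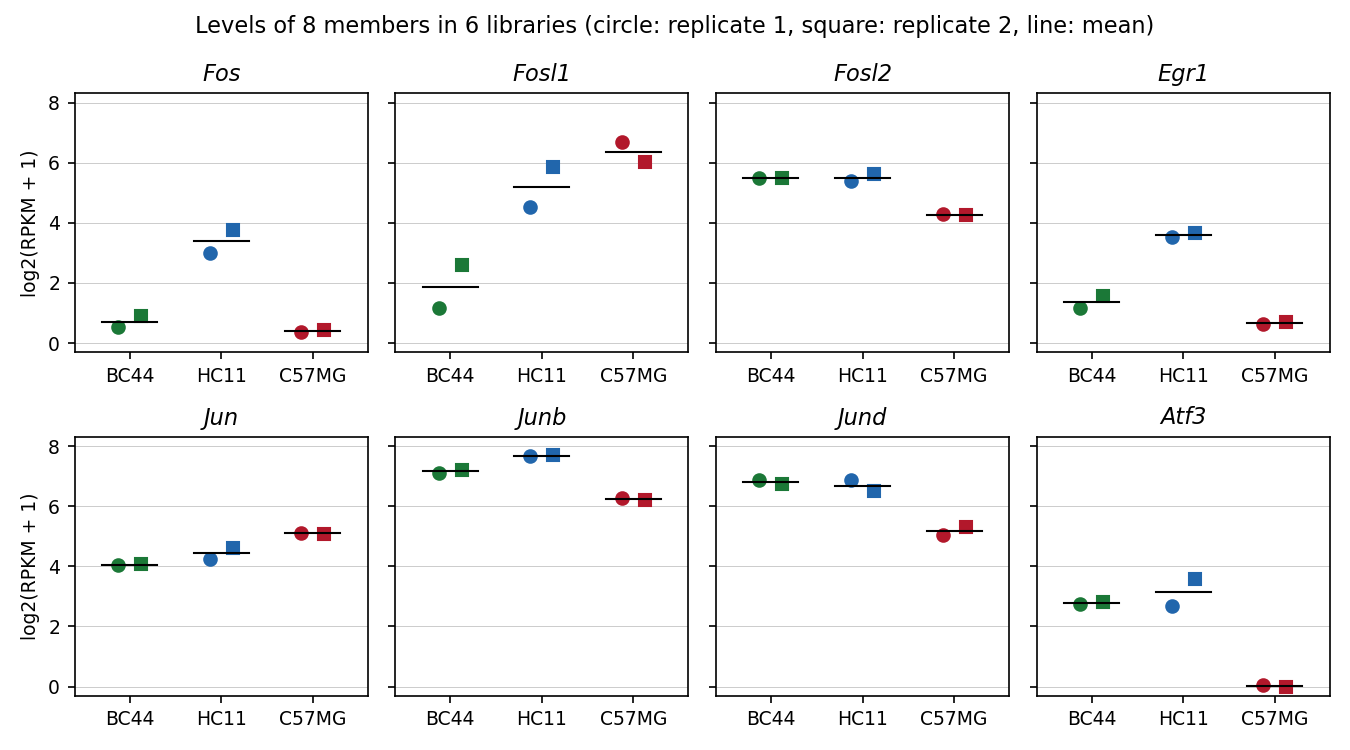
Level of each of the 8 listed genes on the log2(RPKM + 1) scale (vertical axis) in the 3 lines (horizontal axis). Circles are replicate 1, squares replicate 2 and lines the mean of both. Fosl1 runs from 1.24 RPKM in a BC44 library to 102 RPKM in a C57MG library, and Atf3 is at the bottom of the scale in C57MG.

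Fosl1 encodes FRA-1, a Fos protein without a transactivation domain of its own. In BC44 its level was 1.24 and 5.04 RPKM, against 22.3 and 56.6 RPKM in HC11, and 102 and 64.6 RPKM for C57MG. The 3 lines did not overlap, and BC44 was lowest in both libraries. In bulk RNA, fewer expressing cells and less RNA per cell cannot be told apart. C57MG exceeded BC44 by 26.5-fold in mean RPKM (log2 difference BC44 minus C57MG -4.48, SE 0.54, limma adjusted p-value 0.000182). HC11 exceeded BC44 by 12.6-fold (-3.32, SE 0.54, adjusted p-value 0.00202). HC11 and C57MG stood next to each other in this order, and their difference of -1.17 (SE 0.54) was not past the threshold (limma adjusted p-value 0.0889). It was past it without HC11 replicate 2 (-1.82, adjusted p-value 0.0410), was -0.51 without HC11 replicate 1 (0.478), and was past it with the replicate number as a block (0.0414).

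Fosl1 also differed between replicates more than nearly all other genes. Replicate 2 over replicate 1 was 4.05 in BC44, 2.54 in HC11 and 0.633 in C57MG. No more than 0.630%, 1.60% and 3.31% of tested genes in the 3 lines, respectively, were at least as far apart. In BC44 some genes typical of C57MG were also higher in replicate 2: Vim, which encodes the intermediate filament vimentin, reached 0.609% and 1.98% of the mean C57MG level in replicates 1 and 2, Col1a1 at 0.610% and 2.03%, and Pdgfrb at 0.629% and 1.90%. Over the 7 listed mesenchymal markers the median was 1.71% and 3.08%. Fosl1 was at 1.49% and 6.05% of its C57MG mean in the same libraries. At the share seen for Vim, 0.507 and 1.65 RPKM of the BC44 Fosl1 values would be C57MG-like, and the part of this signal in the low BC44 level was not tested.

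Fosl2 encodes FRA-2, the other FRA protein. BC44 had 43.8 and 44.0 RPKM of Fosl2, against 40.5 and 47.9 in HC11, and 18.5 and 18.2 in C57MG. BC44 lay within the range of HC11, and both lines were above C57MG. Fosl2 was 2.40-fold higher in BC44 than in C57MG (log2 difference 1.22, SE 0.09, limma adjusted p-value 1.59e-05) and 2.41-fold higher in HC11 than in C57MG (1.22, SE 0.09, 1.83e-05). Between BC44 and HC11 the difference was -0.01 (SE 0.09, adjusted p-value 0.966).

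Fos, the founding member of the family and the classical serum-induced gene, was low except in HC11. It was at 0.436 and 0.853 RPKM in BC44, 6.96 and 12.7 in HC11, against 0.306 and 0.359 in C57MG. These values rested on an estimated 15 and 35, 304 and 427, and 13 and 13 reads. Fos had at least 1 RPKM only in the 2 HC11 libraries, so it could enter the test only by being high there, and its differences from HC11 are a description of that. HC11 was 15.3-fold above BC44 (log2 difference BC44 minus HC11 -2.68, SE 0.25) and 29.6-fold above C57MG (2.97, SE 0.25), with limma adjusted p-values of 0.000124 and 2.65e-05. BC44 and C57MG did not overlap, but their difference of 0.29 (SE 0.25) was not past the threshold (adjusted p-value 0.317). It was 0.73 with a pseudocount of 0.1 (0.118), and 0.48 and 0.11 without BC44 replicates 1 and 2 (0.232 and 0.781). The HC11 over C57MG difference was 4.46 with a pseudocount of 0.1, since adding 1 RPKM compresses low values.

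Junb, which encodes a Jun protein known to restrain c-Jun and to be induced by many signals, was the most abundant member in 5 of 6 libraries, all but C57MG replicate 1, where Fosl1 was higher. It was at 136.8 and 148 RPKM in BC44, 200.5 and 207 in HC11, compared with 75.7 and 73.6 in C57MG. The 3 lines did not overlap and all 3 differences were past the threshold. HC11 was above BC44 by 1.43-fold (log2 difference BC44 minus HC11 -0.51, SE 0.07, limma adjusted p-value 0.00111) and above C57MG by 2.73-fold (1.44, SE 0.07, 2.27e-06). BC44 was 1.91-fold above C57MG (0.92, SE 0.07, 1.91e-05).

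Jund, which encodes the Jun protein most often present without stimulation, was at 115.1 and 106.2 RPKM in BC44, 116.6 and 89.2 in HC11, with 32.2 and 38.7 in C57MG. BC44 lay inside the range of HC11 (log2 difference 0.12, SE 0.14, limma adjusted p-value 0.539). C57MG was below both, by 3.12-fold against BC44 (1.62, SE 0.14, 3.09e-05) and 2.90-fold against HC11 (1.50, SE 0.14, 5.35e-05).

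Jun, which encodes c-Jun, went the other way. It was at 15.5 and 15.9 RPKM in BC44, 18.1 and 23.3 in HC11, against 33.6 and 32.6 in C57MG, with no overlap between lines. C57MG was 2.11-fold above BC44 (log2 difference BC44 minus C57MG -1.03, SE 0.12, limma adjusted p-value 0.000139) and 1.60-fold above HC11 (-0.66, SE 0.12, 0.00162). The smaller difference between BC44 and HC11 (-0.37, SE 0.12) was near the threshold (adjusted p-value 0.0372). Its adjusted p-value was 0.141 and 0.114 without BC44 replicates 1 and 2, 0.128 without HC11 replicate 2 (difference -0.19), 0.0691 and 0.0690 without C57MG replicates 1 and 2, and 0.0720 with only the 4 libraries compared.

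Of the members lower in C57MG, Junb and Jund lie on chromosome 8 and Fosl2 on chromosome 5. The median tested gene of chromosome 8 was also lower in C57MG, by 0.60 on the log2 scale relative to all genes in BC44 against C57MG and by 0.65 in HC11 against C57MG. On chromosome 5 the shifts were 0.51 and 0.47. The differences of Jund (1.62 and 1.50), Fosl2 (1.22 and 1.22) and Junb (0.92 and 1.44) were larger than these shifts, whose part in them was not tested. On chromosome 4, with Jun, the shifts were 0.02 and 0.02, and on chromosome 19, with Fosl1, 0.22 and 0.20, opposite in direction to the differences of these genes. Chromosome 1, with Atf3, was shifted by -0.15 and -0.08.

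**Figure D2:**
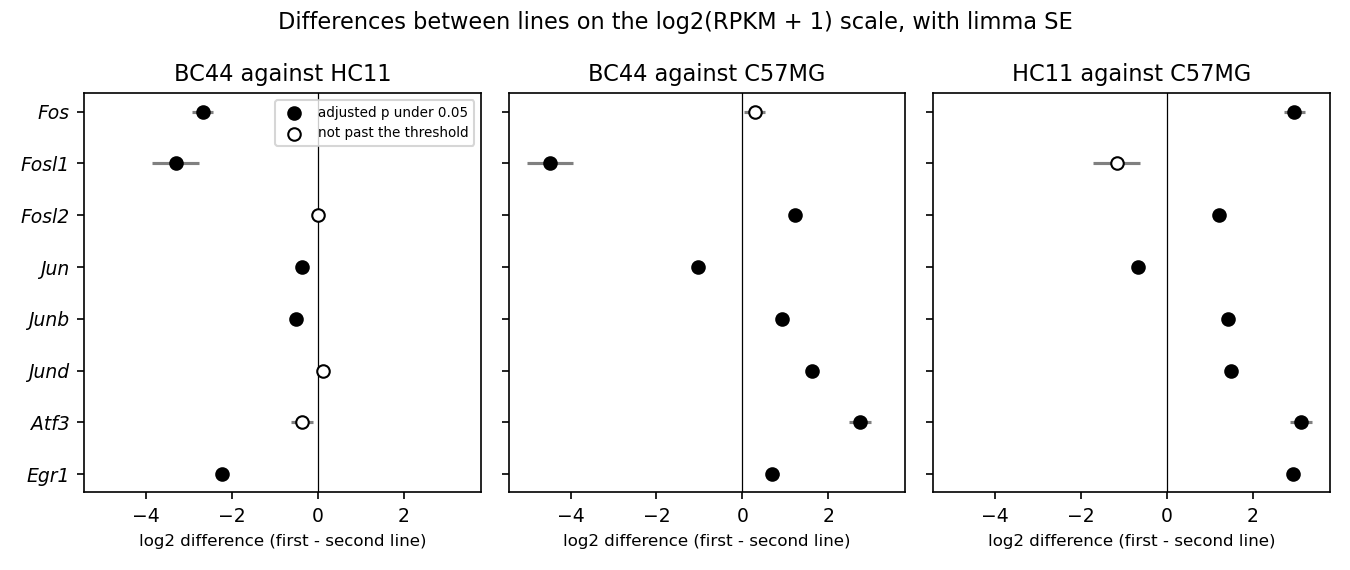
Difference between lines of each member on the log2(RPKM + 1) scale (horizontal axis, first line minus second), with bars of 1 limma SE. Filled points had a limma adjusted p-value under 0.05. Against C57MG, Fosl1 and Jun lie to the left of 0 and the other members to the right.

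Added up per library, the AP-1 transcripts had a different make-up in each line. The 6 listed Fos and Jun family genes summed to 312.9 and 320 RPKM in BC44, 404.9 and 436.7 in HC11, compared with 262.3 and 228.1 in C57MG. Fos-family transcripts made up 14.5% and 15.6% of this sum in BC44, 17.2% and 26.8% in HC11, with 46.1% and 36.4% in C57MG. The ratio of Fos-family to Jun-family RPKM was 0.177 ± 0.0104 in BC44, 0.288 ± 0.112 in HC11 and 0.713 ± 0.198 in C57MG (SD, n = 2 each). The C57MG libraries did not overlap with those of the other lines in this ratio. Such shares are of transcripts, and say nothing of the proteins or dimers present.

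Within the Fos family, Fosl2 held 96.3% and 88.2% of the RPKM in BC44, 58.1% and 40.9% in HC11, against 15.3% and 21.9% in C57MG. Fosl1 held 2.73% and 10.1% in BC44, 31.9% and 48.3% in HC11, compared with 84.5% and 77.7% in C57MG. HC11 replicate 1 thus had more Fosl2 than Fosl1 (ratio Fosl1 over Fosl2 0.549) and replicate 2 more Fosl1 (1.18). Fos itself held 9.97% and 10.8% of the Fos family in HC11, between 0.959% and 1.71% in BC44 and at most 0.432% in C57MG.

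Within the Jun family, Jun held 5.79% and 5.87% in BC44, 5.40% and 7.28% in HC11, with 23.8% and 22.5% in C57MG. Junb exceeded Jun by 8.84-fold and 9.33-fold in BC44, 11.1-fold and 8.90-fold in HC11, against 2.25-fold and 2.26-fold in C57MG. As a share of all 6 genes, Jund was below Junb in every library, at 36.8% and 33.2% in BC44, 28.8% and 20.4% in HC11, compared with 12.3% and 17.0% in C57MG. Comparisons between genes depend on the gene lengths the authors divided by, which are not given in the sources used here. The annotated exonic lengths range from 1668 bases for Jund to 9680 for Fosl2.

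**Figure D3:**
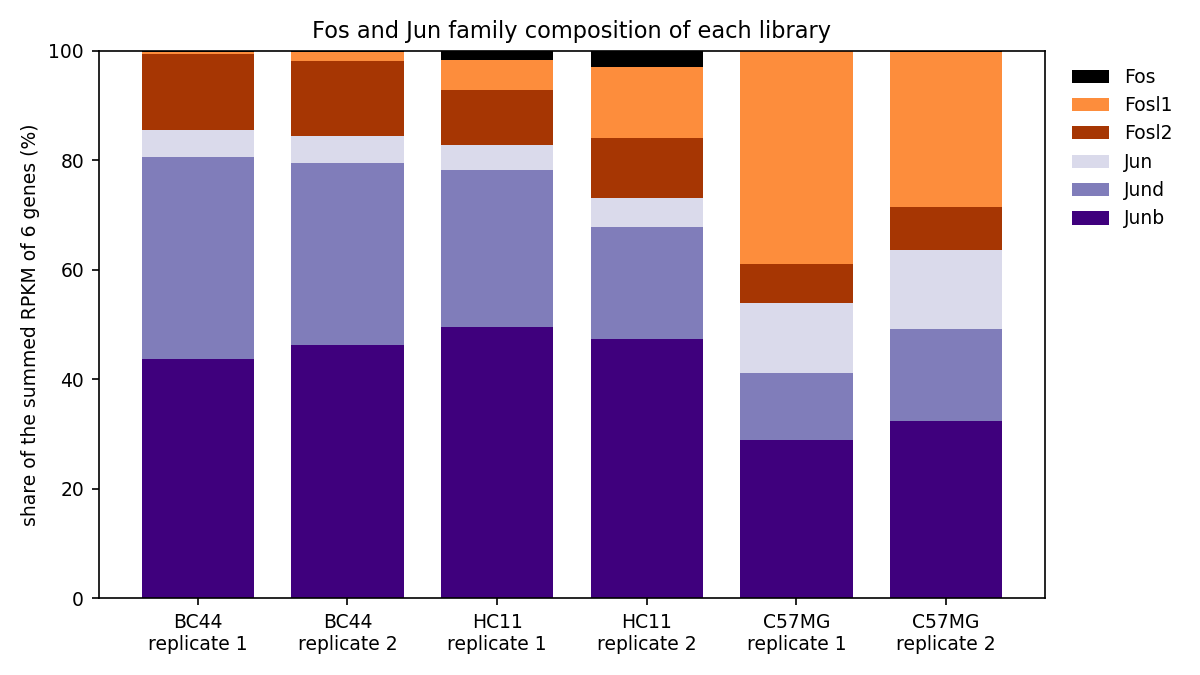
Share of each Fos and Jun family gene (vertical axis, percent) in the summed RPKM of the 6 listed genes, in each of the 6 libraries (horizontal axis). Orange to black are Fos-family genes and purple shades Jun-family genes. Fosl1 takes 38.9% and 28.3% in C57MG and 0.397% and 1.57% in BC44.

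Atf3 encodes a stress-induced leucine-zipper factor that can pair with Jun proteins and often represses. It was at 5.65 and 5.98 RPKM in BC44 and 5.43 and 11.0 in HC11. In C57MG it was at 0.028 RPKM in replicate 1, an estimated 1 read, and was listed at 0 in replicate 2. It was higher than C57MG in BC44 (log2 difference 2.75, SE 0.26, limma adjusted p-value 4.40e-05) and in HC11 (3.12, SE 0.26, 2.58e-05). With a pseudocount of 0.1 these differences were 5.71 and 6.12. Between BC44 and HC11 the libraries overlapped and the difference of -0.37 (SE 0.26) was not past the threshold (adjusted p-value 0.277). There it was -0.82 without HC11 replicate 1 (0.00249) and 0.08 without HC11 replicate 2 (0.537).

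Egr1 encodes a zinc-finger factor that is outside the AP-1 family but is induced by the same MAP kinase and serum response factor route as Fos. It was at 1.25 and 1.96 RPKM in BC44, 10.6 and 11.8 in HC11, with 0.555 and 0.622 in C57MG. The lines did not overlap, and their order, HC11 above BC44 above C57MG, was that of Fos. HC11 was 6.98-fold above BC44 (log2 difference BC44 minus HC11 -2.24, SE 0.14, limma adjusted p-value 2.29e-05) and 19.0-fold above C57MG (2.94, SE 0.14, 1.82e-06). BC44 was 2.72-fold above C57MG (0.70, SE 0.14, 0.00328), or 1.28 on the log2 scale with a pseudocount of 0.1. Atf3 and Egr1 had at least 1 RPKM in the BC44 and HC11 libraries only, so C57MG did not contribute to their entering the test.

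Counted over the 8 members, 5 were past the threshold between BC44 and HC11, all higher in HC11 (Fos, Fosl1, Jun, Junb and Egr1), where 47.7% of all genes were called and 23% were called higher in HC11. Between BC44 and C57MG 7 were past it, 5 higher in BC44 (background 37.5%) and 2 higher in C57MG (background 34.1%), where 71.7% of all genes were called. Between HC11 and C57MG 7 were past it, 6 higher in HC11 (background 37.4%) and 1, Jun, higher in C57MG (background 33.2%), where 70.5% were called. The libraries did not overlap for 5, 8 and 8 members, against 73%, 87.9% and 86.2% of all genes. The median difference of the members was -0.44, 0.81 and 1.47 on the log2 scale, against 0.02, 0.04 and 0.03 over all genes. These comparisons share lines, so their counts are not independent. Since Fos, Atf3 and Egr1 entered through the lines where they were high, the counts describe these genes and support nothing further.

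Members differed in how well their replicates matched. In HC11 the ratio of replicate 2 to replicate 1 was 1.82 for Fos and 2.03 for Atf3, and 4.28% and 2.97% of tested genes were at least as far apart. In BC44 it was 1.96 for Fos (3.04% of genes) and 1.56 for Egr1 (5.73%). Junb and Fosl2 matched more closely, with ratios of 0.973 to 1.08 for Junb and 0.985 to 1.18 for Fosl2 over the 3 lines. Of the 8 members, 7 were higher in replicate 2 of both BC44 and HC11, by as little as a ratio of 1.005 (Fosl2 in BC44), and Jund was lower in both. The same share over all genes was not computed. Over all tested genes the replicate deviations of BC44 and HC11 correlated by 0.354, so this count is not read as particular to the members.

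Other immediate early genes did not follow 1 line as a group. This list and the gene lists below were chosen with earlier results of these data known, so their counts and medians are a description. Of 33 genes in the list, 29 were listed and 28 tested. Of these, 2 (Egr3 and Klf2) reached 1 RPKM in HC11 only. They entered the test by being high there, so their differences from HC11 are a description of that. Between BC44 and HC11 18 were past the threshold, 13 higher in HC11 and 5 in BC44. Between BC44 and C57MG it was 19, 10 higher in BC44 (background 37.5%) and 9 in C57MG (background 34.1%). In HC11 against C57MG 22 were past it, 14 in favour of HC11 and 8 of C57MG. These counts are 64.3%, 67.9% and 78.6% of the tested list, against 47.7%, 71.7% and 70.5% of all genes, so the share between BC44 and C57MG was at the background. Of all genes, 23% were called higher in HC11 than in BC44, and 37.4% higher in HC11 than in C57MG. The 13 and 14 list genes higher in HC11 include Egr3 and Klf2. Nr4a1 and Nr4a2 were under 1 RPKM in both C57MG libraries, so C57MG did not contribute to their entering the test. They are among the genes called higher in BC44 and in HC11 than in C57MG. The median differences of the list were -0.29, -0.02 and 0.51 on the log2 scale, against 0.02, 0.04 and 0.03 over all genes.

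Ier3, an early gene that modulates cell survival, was at 16.3 and 24.7 RPKM in BC44, 262.4 and 521.8 in HC11, against 26.3 and 21.9 in C57MG (BC44 minus HC11 -4.14, SE 0.31, limma adjusted p-value 4.81e-05). Nr4a1, an orphan nuclear receptor induced with Fos, was at 3.29 and 2.94, 11.2 and 13.8, and 0.089 and 0.079 RPKM in the same order, which is the order of Fos and Egr1. Plk3, a stress-responsive kinase, was at 6.46 and 8.02 RPKM in BC44, 34.1 and 54.7 in HC11, compared with 4.57 and 3.25 in C57MG. Ptgs2, which encodes the prostaglandin synthase COX-2, was high in both lines with Atf3: 127.3 and 205.4 RPKM in BC44 and 149.8 and 520.8 in HC11, against 6.34 and 4.02 in C57MG (BC44 minus C57MG 4.74, SE 0.53, adjusted p-value 0.000115). Sgk1, a kinase gene that responds to serum and glucocorticoids, was highest in C57MG at 112.7 and 116.8 RPKM, against 13.4 and 15.0 in BC44 and 24.9 and 26.1 in HC11 (HC11 minus C57MG -2.13, SE 0.08, adjusted p-value 6.71e-07).

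Among 20 other leucine-zipper partners, 17 were listed and all 17 tested. Between BC44 and HC11 10 were past the threshold, 8 higher in HC11 and 2 in BC44. Against C57MG it was 13 for BC44, 5 higher in BC44 and 8 in C57MG, and 13 for HC11, 8 higher in HC11 and 5 in C57MG. The shares of 58.8%, 76.5% and 76.5% stand against 47.7%, 71.7% and 70.5% of all genes, near the background in both comparisons with C57MG. Maf, called higher in BC44 and in HC11 than in C57MG, was under 1 RPKM in both C57MG libraries, which did not contribute to its entering the test. Mafk and Mafg, which encode small Maf proteins without a transactivation domain, were lowest in C57MG: Mafk was at 22.1 and 24.9 RPKM in BC44, 19.5 and 21.7 in HC11, with 6.82 and 5.27 in C57MG. Mafg was at 20.3 and 22.6, 25.7 and 23.8, and 9.28 and 8.47 RPKM. Maff, the inducible small Maf gene, was high in HC11 (11.9 and 14.8 RPKM) against 2.16 and 4.30 in BC44 and 4.44 and 2.94 in C57MG, and its libraries of BC44 and C57MG overlapped. Cebpb and Cebpd, which encode C/EBP factors of inflammation and mammary development, were also highest in HC11. Cebpb was at 284 and 238.3 RPKM there, 84.7 and 72.2 in BC44 and 170.8 and 181.2 in C57MG. Cebpd was at 32.2 and 36.3 RPKM in HC11, 8.46 and 11.5 in BC44, and 12.1 and 12.2 in C57MG.

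Genes upstream of AP-1 differed in both directions, with medians near 0. Of 22 genes for kinases, serum response factor and its cofactors, EGR1 co-repressors and Jun turnover, 20 were listed and tested, Srf also being in the early gene list. Between BC44 and HC11 15 were past the threshold (8 higher in BC44 and 7 in HC11), with 7 past it without BC44 replicate 2 and 9 without HC11 replicate 2. Against C57MG it was 12 for BC44 (5 higher in BC44) and 12 for HC11 (6 higher in HC11). These are 75%, 60% and 60% of the list, against 47.7%, 71.7% and 70.5% of all genes, so both shares against C57MG were below the background. Their median differences were 0.02, -0.02 and 0.02 in the 3 comparisons. Nab1, which encodes a co-repressor that binds EGR1, was at 64.3 and 73.1 RPKM in BC44, 133.6 and 124.4 in HC11, against 31.5 and 31.0 in C57MG. This is the order of Egr1 (HC11 minus C57MG 2.01, SE 0.09, limma adjusted p-value 9.85e-07). Nab2, the other EGR1 co-repressor gene of the list, had the opposite order. It was at 13.4 and 13.5 RPKM in BC44, 10.8 and 9.18 in HC11, against 15.1 and 15.6 in C57MG. Rps6ka1, which encodes the ERK-activated kinase RSK1, was at 34.7 and 33.8 RPKM in BC44, 28.2 and 22.5 in HC11, compared with 6.33 and 5.13 in C57MG. Elk3, a cofactor of serum response factor, was highest in HC11 at 35.2 and 30.1 RPKM. Mapk9, which encodes the Jun kinase JNK2, was at 17.0 and 16.8 RPKM in C57MG against 8.72 and 8.63 in BC44 and 10.7 and 10.2 in HC11. Fbxw7, which encodes a ubiquitin ligase subunit that marks c-Jun for degradation, was at 5.78 and 5.75 RPKM in C57MG, where Jun was highest, and at 2.30 to 2.97 in the other lines.

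Among textbook AP-1 target genes, more were higher than lower in HC11 against either other line. Of 29 genes, 25 were listed and tested. Of these, 4 (Mmp3, Mmp10, Mmp13 and Il11) reached 1 RPKM in HC11 only. They entered the test by being high there, so their differences from HC11 are a description of that. Between BC44 and HC11 20 were past the threshold, 18 higher in HC11 and 2 in BC44. Between BC44 and C57MG 20 were past it, 7 higher in BC44 (background 37.5%) and 13 in C57MG (background 34.1%). In HC11 against C57MG 20 were past it, 16 in favour of HC11 and 4 of C57MG. Each count is 80.0% of the list, against 47.7%, 71.7% and 70.5% of all genes, so the shares against C57MG were closer to the background. Of all genes, 23% were called higher in HC11 than in BC44, and 37.4% higher in HC11 than in C57MG. The 18 and 16 targets higher in HC11 include the 4 that entered through it, as do the medians. Lif, Sprr1a and Sprr1b were under 1 RPKM in both C57MG libraries, so C57MG did not contribute to their entering the test. They are among the genes called higher in BC44 and in HC11 than in C57MG. The median differences of the list were -1.21, -0.41 and 1.44 on the log2 scale. The list was chosen with earlier results of these data known, so these counts and medians are a description. Its genes have many other regulators, and their relation to AP-1 was not tested here.

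Il6, an inflammatory cytokine gene, was listed at 0 and at 0.105 RPKM in BC44, at 58.2 and 90.3 in HC11, and at 1.17 and 0.895 in C57MG. Lif, a related cytokine gene, was at 2.89 and 4.47 RPKM in BC44, 55.0 and 99.2 in HC11, with 0.903 and 0.656 in C57MG. Spp1, which encodes the matrix protein osteopontin, was high in both lines with high Fosl1, at 2214 and 2413 RPKM in HC11 and 2741 and 2989 in C57MG, against 67.8 and 102.6 in BC44 (BC44 minus C57MG -5.08, SE 0.18, limma adjusted p-value 3.54e-07). The same order of lines as in Fosl1 was seen in Plau and the lowest level in BC44 in Plaur, the urokinase and its receptor, which were picked after their values were seen. Plau was at 28.0 and 29.4 RPKM in BC44, 40.0 and 78.9 in HC11, against 96.4 and 108.4 in C57MG, and Plaur at 7.54 and 10.3, 33.0 and 62.0, and 43.1 and 35.3.

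Other targets did not follow Fosl1. Ccl2, a monocyte chemokine gene, was at 235.6 and 240 RPKM in C57MG, 1.14 and 3.78 in BC44 and 0.946 and 3.86 in HC11. Sprr1b, a gene of the squamous cell envelope, was highest in BC44 at 50.2 and 92.0 RPKM, against 12.9 and 24.3 in HC11 and 0.877 and 0.079 in C57MG. The stromelysin genes Mmp3 and Mmp10 and the collagenase gene Mmp13, also picked after their values were seen, were at 0.021 RPKM or less outside HC11. Mmp10 was at 16.0 and 39.4 RPKM there, Mmp3 at 4.85 and 19.9, and Mmp13 at 3.98 and 19.1. Mmp3 and Mmp10 were listed at 0 in all 4 other libraries. The HC11 replicate with more Fosl1 and Fos was the one with more of Il6, Lif, Plau, Plaur and these 3 Mmp genes. It also had more of every other listed target gene, Ccl2 and Sprr1b included, except Mmp14 and Tgfb1. This is a description of 2 libraries and was not particular to genes that follow Fosl1.

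**Figure D4:**
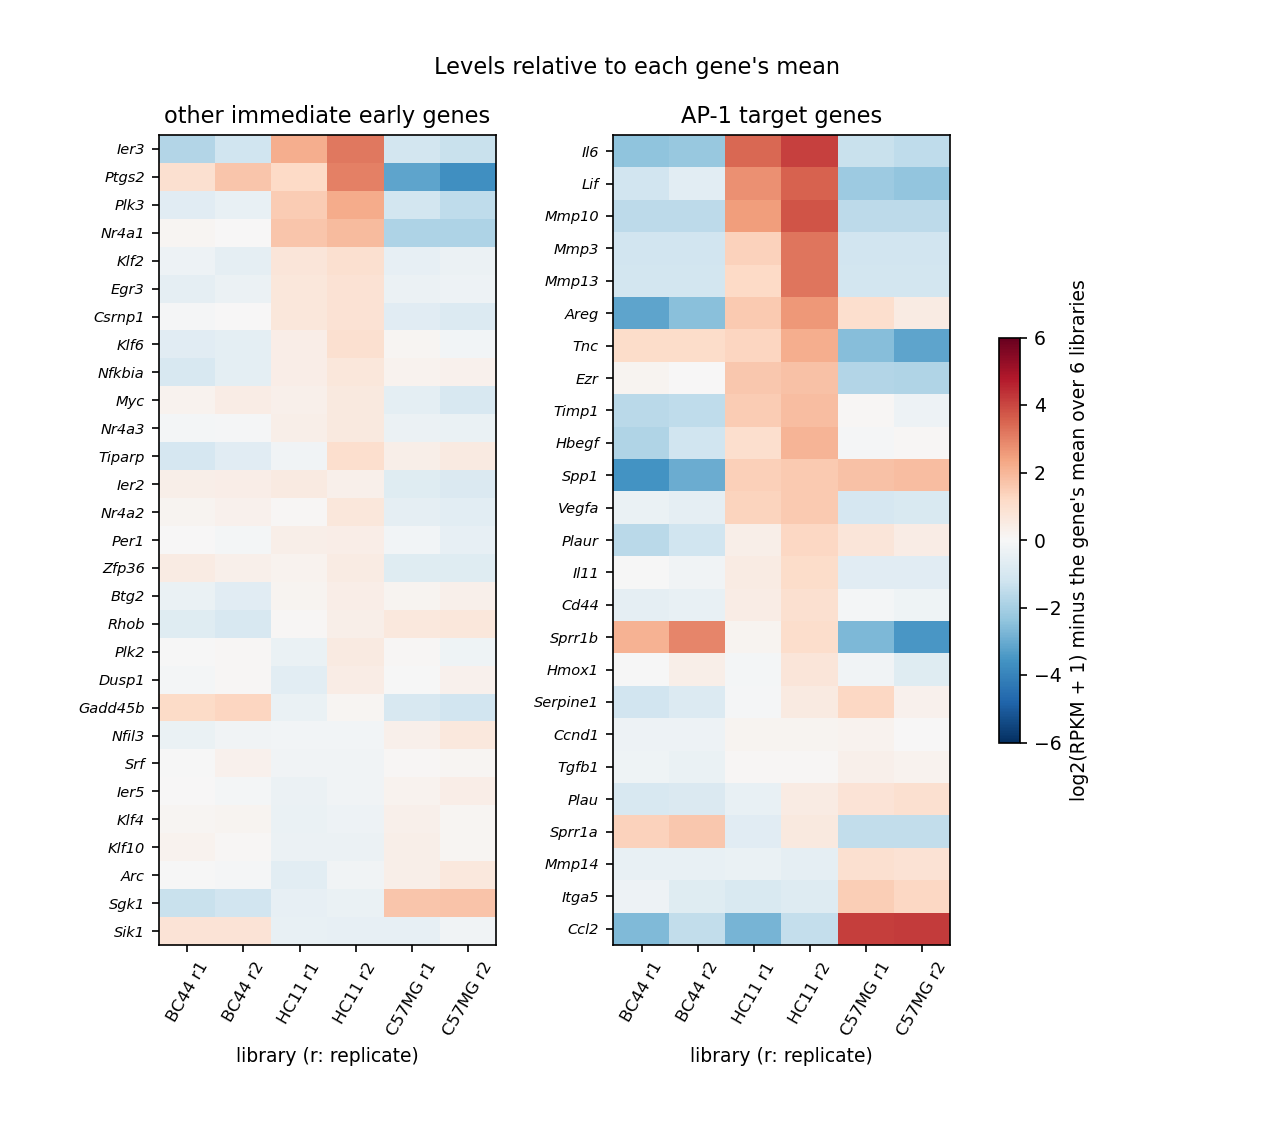
Level of each listed gene relative to its own mean over the 6 libraries on the log2(RPKM + 1) scale (colour), for the other immediate early genes (left) and the AP-1 target genes (right), with 1 column per library. Rows are ordered by their level in HC11. Red in the HC11 columns is stronger in replicate 2 for Ier3, Ptgs2, Il6, Lif, Mmp3, Mmp10 and Mmp13, and Ccl2 is red in the C57MG columns only.

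Genes were ranked by how closely their levels tracked those of a member, as the root mean square (RMS) difference over the 6 libraries after centring each gene's log2(RPKM + 1) on its own mean. Likeness was looked up for the 8 members, whose line means spanned 1.03 (Jun) to 4.48 (Fosl1) on that scale. Fosl1 had no close match. Its nearest genes, Fam111a (RMS difference 0.516) and Zfp36l2 (0.526), were also lowest in BC44 and highest in C57MG but differed less between the HC11 replicates. Fos was nearest to Rnf19b (0.170), a ubiquitin ligase gene, and Il1rn (0.181), which encodes the interleukin-1 receptor antagonist. Egr1 was nearest to Ehf (0.197), an epithelial ETS factor gene, and Snai3 (0.201). Atf3 was nearest to Tbc1d2 (0.166) and Pard6b (0.183), a cell polarity gene, both of which were also at 0.098 RPKM or less in C57MG. RMS differences were smaller for Fosl2 with Zfp655 (0.0401), and for Junb with Psd4 (0.0612) and Fam104a (0.0677). They were also smaller for Jun with Rnf217 (0.0643) and Anxa2 (0.0724), and for Jund with Mdfi (0.0953) and Shroom1 (0.106). The RMS difference is not scaled to a gene's span, and the line means of these members spanned less than those of Fos, Atf3 and Egr1. Smaller values are therefore not closer matches in proportion to the span. With 3 lines and 2 libraries each, many genes can track a member by line alone.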

How the data were processed

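Poly(A) RNA libraries of BC44, HC11 and C57MG (2 each, grouped by title) were analysed from 1 table of RPKM values deposited by the authors. STAR and build mm9 are named in the submitters' processing notes. The read counter, annotation, gene lengths, any gene filter and the use of strand are not given in the sources used here, so values of genes with an antisense partner are uncertain. Depth was estimated as the read number at which low RPKM values times exonic length (GENCODE M21, GRCm38, matched by gene ID for all 11417 genes) fell on whole reads. Of the 301 to 461 values used per library 76.3% to 79.1% lay within 0.15 of a whole number, against 30% by chance. Estimated reads carry counting error, and they also depend on this depth and on exonic lengths that may differ from those the authors used.

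Tests on log2(RPKM + 1) used limma 3.58.1 under R 4.3.3, fitting lmFit, contrasts.fit and eBayes (trend on), with the 3 lines in 1 model and two-sided p-values, and limma offset zero sample variances in some fits. The filter left out 658 genes. This scale understates changes of low genes. Exact permutation of 2 against 2 libraries cannot give a p under 0.333 and was not used. The fit was tested on simulated data. The members and gene lists were chosen with earlier results of these data known. Named list genes are the 5 per list with the largest called difference without overlap, and likeness was ranked for members whose line means span at least 1. The settings varied were the pseudocount (0.1), the filter (none, or mean RPKM of 5 or more), scaling (quantile or median-ratio), the trend, the libraries in the fit (the 4 compared, or without each in turn) and a replicate block. Python 3.11.15 with numpy 2.4.6, pandas 2.3.3 and matplotlib 3.10.9 made the summaries and plots.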

Additional observations from a re-analysis of the deposited data

How the results depend on the processing

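Of 327 recomputed differences of single members, 315 kept their direction and their side of the threshold. In BC44 against HC11, the direction changed without HC11 replicate 2 for 3 members, none of them past the threshold before or after. Leaving out the HC11 libraries gave -0.12 to 0.11 for Fosl2, -0.075 to 0.31 for Jund and -0.82 to 0.084 for Atf3. A mean of at least 5 RPKM removed Fos, Atf3 and Egr1 from the test, leaving 3 members past the threshold in BC44 against HC11 and 4 in HC11 against C57MG. Leaving out libraries gave 4 to 6, 7 to 7 and 7 to 8 members between BC44 and HC11, between BC44 and C57MG, and between HC11 and C57MG, and 7 to 12 upstream genes in the first. Quantile normalization moved the share of Jun in BC44 from 4.95% to 5.01% and that of Fos in C57MG from 0.137% to 0.185%. The replicate numbers come from the titles only. Deviations of same-numbered libraries from their line means correlated across genes by 0.354 (BC44 and HC11), -0.04 (BC44 and C57MG) and 0.04 (HC11 and C57MG). Since only the first of these was above 0.1, the numbers were not taken to pair the libraries, although BC44 and HC11 libraries of the same number deviated together. With the replicate block 5350, 7875 and 7721 genes were called, against 5129, 7713 and 7590, and among the members only Fosl1 in HC11 against C57MG changed sides (adjusted p-value 0.0414). At the estimated depth a floor of 3 reads is 0.0807 to 0.105 RPKM for a gene of 2 kb, so Atf3 in C57MG lies below what can be measured.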
